A study of Mus musculus with 28 samples.

Results

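Of 5235 protein-coding autosomal genes whose transcript level averaged under 0.18 in the Prdm9 knockout testis libraries, 519 (9.91%) had a meiotic break peak within 1000 bp of their start or their 3′ end. They are called silent genes with a peak below, and their 622 peak-bearing ends lay at 553 distinct peaks. Silent means a low value in the deposited table, not proof that a gene is off, and it was measured in another genotype than the breaks. In all, 19979 protein-coding autosomal genes of RefSeq (GRCm38.p6) had a value, and 8917 of the 14744 that were not silent (60.5%) had a peak at an end. The genes were chosen by their low Prdm9 KO values and by the peaks, so both are described here and neither is tested.

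The series has 28 samples and asks what the domains of PRDM9 do in mouse meiosis. All samples used here were testis of C57BL/6 mice. Messenger RNA was measured in Prdm9 KO (2 libraries), in Hop2 KO (2 libraries) and in wild-type adults (1 library), with no age given for the knockouts. Breaks came from 1 library of Prdm9 K/K mice, whose PRDM9 lacks the KRAB domain, made by single-stranded DNA sequencing (SSDS). The break map therefore has no replicate, and no mRNA library of the K/K genotype was used here. The labels leave unsaid whether each library is a separate animal, so a p-value here reflects only library-to-library spread, possibly technical. Libraries of trimethylated histone H3 lysine 4 and of microRNA were not analysed here.

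In meiosis the nuclease SPO11 cuts both DNA strands, and the recombinase DMC1 coats the single strands left after the cut ends are trimmed. SSDS sequences that single-stranded DNA. PRDM9 binds DNA through its zinc fingers and trimethylates histone H3 lysine 4 there, which places breaks at its binding sites. In mice without working PRDM9, breaks are known to fall largely at promoters and other sites that carry this mark by other means. CpG islands, stretches in which the dinucleotide CG is not depleted, are known to carry the mark at many promoters, including those of developmental regulators that are hardly transcribed.

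Promoter sequences show how different the starts with a peak were. Each line gives the 250 bases before a RefSeq start in GRCm38.p6, 5′ to 3′ on the gene's strand, with each CG dinucleotide in capitals. The first 7 belong to silent genes whose peak overlapped this window, and the last to a silent gene without a peak. They span a CpG-rich transcription factor gene, signal, channel and receptor genes, a sperm gene, an olfactory receptor gene and a gene next to an active neighbour.
Sox2: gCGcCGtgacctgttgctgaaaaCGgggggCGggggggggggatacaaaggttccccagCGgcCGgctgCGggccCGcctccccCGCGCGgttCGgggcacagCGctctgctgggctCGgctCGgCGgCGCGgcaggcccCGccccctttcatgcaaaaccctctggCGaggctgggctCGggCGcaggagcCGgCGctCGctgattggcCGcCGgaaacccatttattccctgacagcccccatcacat
Grm8: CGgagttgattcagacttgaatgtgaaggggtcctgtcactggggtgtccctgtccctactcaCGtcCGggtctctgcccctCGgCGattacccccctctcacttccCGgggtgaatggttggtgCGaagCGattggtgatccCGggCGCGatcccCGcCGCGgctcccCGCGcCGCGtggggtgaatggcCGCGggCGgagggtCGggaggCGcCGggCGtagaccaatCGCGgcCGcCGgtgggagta
Sema3e: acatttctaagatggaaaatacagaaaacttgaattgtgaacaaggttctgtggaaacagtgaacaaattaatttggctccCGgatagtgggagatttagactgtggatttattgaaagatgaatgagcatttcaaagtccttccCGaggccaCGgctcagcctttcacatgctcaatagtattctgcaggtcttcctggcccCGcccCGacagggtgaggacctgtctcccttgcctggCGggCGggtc
Scn1a: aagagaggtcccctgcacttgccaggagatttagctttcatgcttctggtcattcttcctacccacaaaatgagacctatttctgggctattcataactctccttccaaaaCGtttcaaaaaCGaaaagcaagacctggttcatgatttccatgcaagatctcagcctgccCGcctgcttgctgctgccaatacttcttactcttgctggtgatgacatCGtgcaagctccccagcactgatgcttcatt
Ccdc83: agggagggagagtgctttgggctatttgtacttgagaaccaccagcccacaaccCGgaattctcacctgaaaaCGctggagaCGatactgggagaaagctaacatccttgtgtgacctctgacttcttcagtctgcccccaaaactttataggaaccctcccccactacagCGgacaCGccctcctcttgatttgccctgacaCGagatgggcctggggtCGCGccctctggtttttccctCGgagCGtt
Olfr281: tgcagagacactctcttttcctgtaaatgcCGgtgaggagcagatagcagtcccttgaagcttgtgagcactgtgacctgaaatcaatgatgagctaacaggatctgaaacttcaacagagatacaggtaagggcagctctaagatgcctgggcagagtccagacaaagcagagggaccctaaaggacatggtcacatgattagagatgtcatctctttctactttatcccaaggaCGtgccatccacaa
Rsph6a: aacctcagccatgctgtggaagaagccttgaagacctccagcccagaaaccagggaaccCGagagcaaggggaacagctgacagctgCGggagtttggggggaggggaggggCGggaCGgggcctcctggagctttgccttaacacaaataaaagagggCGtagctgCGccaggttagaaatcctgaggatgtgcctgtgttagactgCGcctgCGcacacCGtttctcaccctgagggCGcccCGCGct
Cyp19a1: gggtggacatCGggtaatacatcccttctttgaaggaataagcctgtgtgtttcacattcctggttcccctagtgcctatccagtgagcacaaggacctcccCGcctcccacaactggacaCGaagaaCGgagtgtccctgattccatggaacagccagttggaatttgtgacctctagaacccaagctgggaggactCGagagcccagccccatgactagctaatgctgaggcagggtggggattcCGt

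Sox2, a transcription factor of stem cells and the early nervous system, holds 27 CG dinucleotides in this window (chr3:34649745-34649994, plus strand). Grm8, a glutamate receptor gene, holds 29 (chr6:28135147-28135396, minus strand). Sema3e, which encodes a secreted guidance cue, holds 7 (chr5:14025026-14025275, plus strand), and Scn1a, a neuronal sodium channel gene, holds 4 (chr2:66440838-66441087, minus strand). Ccdc83, listed with the sperm genes by its name, holds 10 (chr7:90265433-90265682, minus strand). The odorant receptor gene Olfr281 holds 2 (chr15:98456062-98456311, plus strand). Rsph6a, a radial spoke gene of the sperm tail, holds 12 (chr7:19054437-19054686, plus strand). Cyp19a1, the aromatase gene, was silent without a peak and holds 6 (chr9:54268165-54268414, minus strand). CG counts of windows with a peak thus ranged on both sides of the count in the window without one.

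The break peaks at silent genes were weaker than those at active ends, and most had the strand pattern of breaks. SSDS fragments are counted here once per distinct position and strand. A peak at a silent gene held a median of 18 distinct fragments (range 3 to 218), or 10.3 per kb, which was a median 10.97 times the density of its flanks. Peaks at ends of active coding genes, those with a Prdm9 KO mean of at least 1, held a median of 36, or 16.3 per kb. The 8205 autosomal peaks at no gene end held 16, or 10.1 per kb. Thus 213 of the 519 genes (41.0%) had a peak above the autosomal median of 22 fragments, and 68 (13.1%) had one above the upper quartile of 46.

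Resection exposes opposite strands on either side of a break, which leaves plus-strand fragments on the left and minus-strand fragments on the right. Within 1000 bp of the midpoints of peaks at silent genes, 76.5% of 13355 fragments followed this pattern. The shares in the pattern given below for peaks likewise refer to fragments that near a midpoint, not to all fragments of a peak. The shares were 78.9% at active ends, 78.9% at peaks away from gene ends and 50.1% at 15113 positions away from peaks. Of the 553 peaks, 522 had over 50% of fragments in the pattern and 31 did not. These came largely from wide peaks: 17 of the 38 peaks over 3000 bp wide (44.7%) had 50% or less, against 1 of the 191 that were up to 1500 bp wide (0.524%). Pooled over the 38, 55.5% of fragments were in the pattern, and over the 191, 81.5%. At active ends, peaks over 3000 bp wide had 71.8% in the pattern, and 182 of 1220 (14.9%) had 50% or less. Away from gene ends, 91 of 313 such wide peaks (29.1%) had 50% or less.

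**Figure D1:**
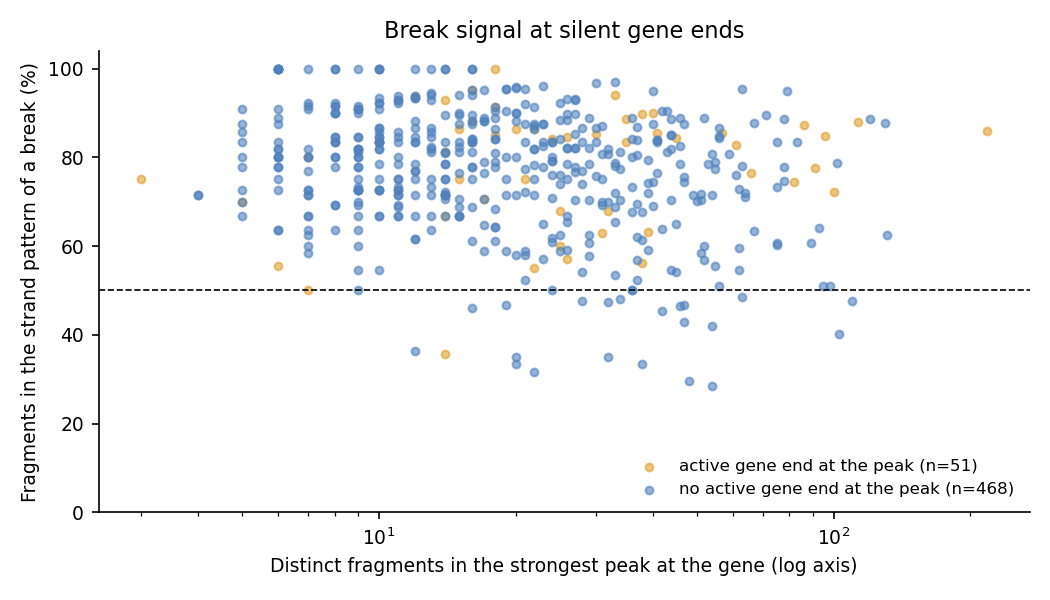
Strand pattern of the strongest peak at each of the 519 silent genes (y axis, percent of fragments within 1000 bp of the midpoint that lie on the strand expected left and right of a break) against its distinct fragments (x axis, log scale). Orange points are the 51 genes whose peak also touches an active gene end and blue points the other 468. The dashed line marks 50%; most points lie above it, while a few strong peaks lie near or below it.

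The strongest peaks belonged to genes of varied function. Unc80, which encodes a part of a neuronal sodium leak channel, had the most fragments, 218, at chr1:66700065-66702512. Asb15, a muscle ankyrin repeat gene, had 113 at chr6:24526150-24528850. Both peaks also touched an active neighbour. That of Unc80 covered an end of the neighbour and no end of Unc80 itself. Both are taken up with the neighbours below. Mab21l2, an eye development gene, had 131 in a peak inside the body of the active gene Lrba, with 62.5% in the strand pattern. Syt4, which encodes a synaptotagmin of neuronal vesicles, had 130 with 87.7% in the pattern and no active gene at the peak. Syt4 values were 0.00511 and 0.00872 in the Prdm9 KO libraries, 0.0104 and 0.00495 in the Hop2 KO libraries and 0.00408 in wild type. Cdh10, a cadherin gene, had 120 at its start (chr15:18817686-18820095), 88.6% of nearby fragments in the pattern, and values of 0.0540 and 0.0747 in the Prdm9 KO libraries, 0.0503 and 0.106 in the Hop2 KO libraries and 0.128 in wild type. All 5 libraries of both genes were thus low, wild type included. Lmod2, an actin nucleator gene of heart muscle, had 102 fragments, and its values ran from 0.0104 in Prdm9 KO library 1 to 0.0744 in Hop2 KO library 1. After Ifna13, Fga, Sox2 and Neurog2, described below, the next genes without an active end at the peak were Vrtn (93), Grm8 (89), Slc26a4 (83, an anion exchanger of the inner ear), Fam71f1 (79), Ncam2, Nr2e3 and Sidt1 (78 each).

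A few strong peaks lacked the strand pattern. Ifna13, a type I interferon gene listed at 0 in all 4 knockout libraries and at 0.0218 in wild type, had 110 fragments in a peak 4463 bp wide, and 47.6% of those within 1000 bp of its midpoint were in the pattern. The fibrinogen gene Fga had 103 at its 3′ end with 40.3% in the pattern. At Sox2 the share was 50.9% and at Neurog2, a neuronal differentiation factor gene, 51.1%. Of the 36 genes whose strongest peak was over 3000 bp wide, 15 had 50% or less of fragments in the pattern. Of all 27 genes at 50% or less, 1 was in the list of developmental transcription factors introduced below, 1 in that of signals and 20 in no list. The 20 held developmental regulators that the list misses, such as Fezf1, Hmx3, Lbx1, Onecut2 and Sim1, named after their values were seen. The list counts therefore understate such genes.

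How often a silent gene had a peak differed by gene list. Lists were made from symbol starts, and their shares are descriptions without a test. Symbol starts miss some members of each kind of gene, so the shares are not rates of whole families. For example, the immune gene Fasl and the G protein-coupled receptor gene Ghsr had a peak but fell in no list. They are named after their values were seen. Developmental transcription factors had a peak in 37 of 91 silent genes (40.7%) and developmental signals and receptors in 12 of 30 (40%). Ion channels followed with 30 of 100 (30%), zinc finger genes with 5 of 21 (23.8%) and solute carriers with 21 of 91 (23.1%). G protein-coupled receptors had 15 of 81 (18.5%), cadherins and protocadherins 5 of 30 (16.7%) and sperm and spermatid genes 11 of 91 (12.1%). Genes in no list had 365 of 2932 (12.4%). By contrast 12 of 1395 olfactory and vomeronasal receptor genes (0.860%), 3 of 154 immune genes (1.95%) and 3 of 127 keratin and skin barrier genes (2.36%) had one. None of 92 genes for cytochrome P450, sulfotransferase and glucuronosyltransferase enzymes had one. The histone list, made from symbols that start with Hist, matched no silent gene. The linker histone gene H1f3 was silent with a peak but fell in no list, and is named after its values were seen. Olfactory and vomeronasal genes made up so many silent genes that without them the share with a peak was 13.2% (507 of 3840).

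**Figure D2:**
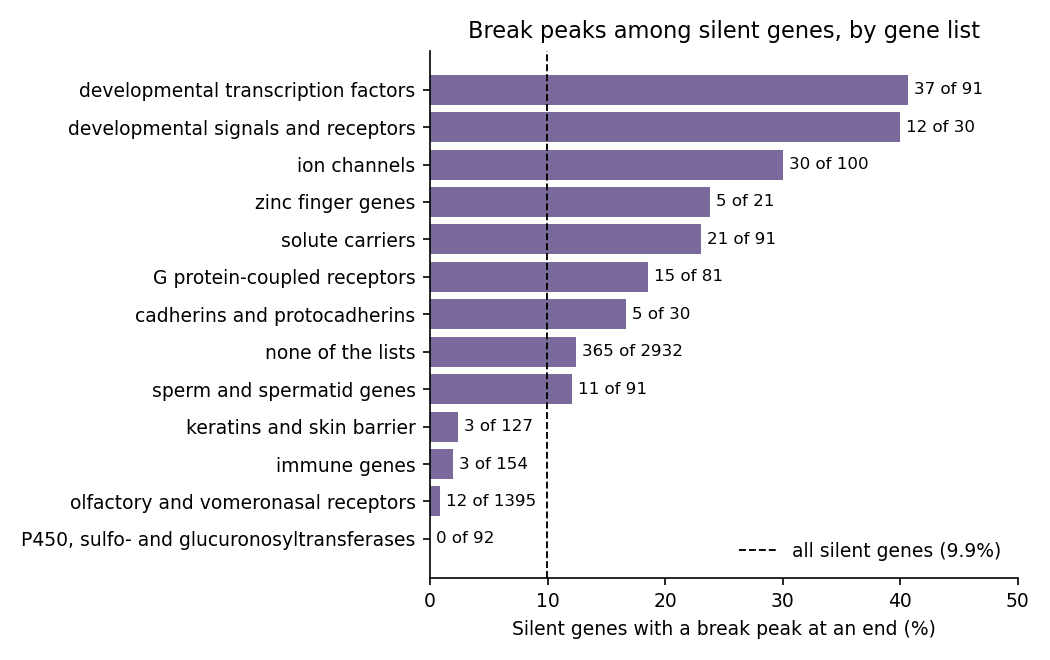
Percent of silent genes with a break peak at an end (x axis) in each gene list (y axis), with the number of genes beside each bar and the share over all silent genes as a dashed line. Developmental transcription factors (37 of 91) and developmental signals (12 of 30) have the longest bars, and olfactory and vomeronasal receptors (12 of 1395) and the enzyme list (0 of 92) the shortest.

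Among the developmental transcription factors, Sox2 had the most fragments, 98, at chr3:34648049-34652036, which covers the start and reaches within 1000 bp of the 3′ end of the gene (chr3:34649995-34652461). Its values were 0.1799 and 0.174 in the Prdm9 KO libraries, 0.229 and 0.235 in the Hop2 KO libraries and 0.0795 in wild type, highest in Hop2 KO and lowest in wild type. Neurog2 had 95 fragments, and its values were 0.0230 and 0.0623 in the Prdm9 KO libraries, 0.0515 and 0.0442 in the Hop2 KO libraries and 0.292 in wild type. Pou3f3, a POU homeobox gene of the developing brain, had 75, with values of 0.0136 and 0.0254 in the Prdm9 KO libraries, 0.00652 and 0.0189 in the Hop2 KO libraries and 0.168 in wild type. Foxd4, a forkhead gene, had 64. The list held Sox1, Sox14 and Sox21, Pax1 and Pax3, Six2, Six4 and Six6, Nkx2-1 to Nkx2-3, Otx2, Dlx5 and 4 Hoxa genes. Of its 37 genes, 2 shared the peak with an active end (Six4 with Mnat1, Tbx10 with Nudt8). At the peaks of Barhl2, Foxl2, Nkx2-1, Nkx2-3, Pax1, Pou3f3, Six2 and Sox21 there was an end of a lncRNA gene without a value. Of the 37 genes, wild-type values reached 1 in 9 and stayed under 0.18 in 18. Symbol starts miss some developmental regulators that also had a peak, such as the homeobox gene Dbx1, the basic helix-loop-helix gene Atoh1 and the muscle factor gene Myf5, named after their values were seen.

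Of the 12 signal and receptor genes, none had an active end of a measured gene at the peak. At the peaks of Epha5, Fgf17 and Bmp3 there was an end of a gene without a value. Sema3e led with 56 fragments and 86.5% in the strand pattern, with values of 0.0398 and 0.0341 in the Prdm9 KO libraries, 0.0369 and 0.0517 in the Hop2 KO libraries and 0.854 in wild type. Epha3 and Epha5, ephrin receptor genes, had 52 and 38, and the growth factor gene Fgf17 had 44. Their wild-type values were 0.444 for Epha3, 0.236 for Epha5 and 1.78 for Fgf17.

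The channel genes included subunits of receptors for acetylcholine (Chrna1, with 64 fragments) and glutamate, and the voltage-gated Scn1a (31) and Kcnh6 (57). The Kcnh6 peak lay near its 3′ end and was shared with the active gene Dcaf7, at 53.2 and 43.4 in the Prdm9 KO libraries. Chrna1, the muscle acetylcholine receptor subunit, had its peak at the 3′ end. At the peaks of Chrna1 and Scn1a, as at that of Cdh10, there was an end of a lncRNA gene without a value. Scn1a values were 0.0309 and 0.0355 in the Prdm9 KO libraries, 0.0312 and 0.0109 in the Hop2 KO libraries and 0.657 in wild type. Grm8, a metabotropic glutamate receptor gene, led the G protein-coupled receptors with 89, and Gpr85 had 31 and Npy2r 28. Values of Grm8 were 0.0178 and 0.0212 in the Prdm9 KO libraries, 0.0415 and 0.0489 in the Hop2 KO libraries and 0.407 in wild type. Among solute carriers Slc26a4 had 83 and Slc6a20a 75. Cdh20, Pcdh9 and Cdh12 stood behind Cdh10 among cadherins with 36, 24 and 22. Of the zinc finger genes Zfp804b (37) was listed at 0 in all 4 knockout libraries.

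The 12 olfactory and vomeronasal genes had 10 to 28 fragments at their peaks, and in each the peak covered an end. Olfr281 had 28 with 83.3% in the strand pattern and values of 0.0265 and 0.0342 in the Prdm9 KO libraries, 0.0315 and 0.0391 in the Hop2 KO libraries and 0.527 in wild type. Olfr279 (22), Olfr282 and Olfr283 are also among the 12; the last pair is named after the values were seen. Vmn1r184 had 26 and was listed at 0 in all 5 libraries. Near-identical copies of such receptor genes can share reads, so their levels are uncertain. The same holds for the interferon gene Ifna13. Among immune genes Cxcl3 had 24 fragments and Il20ra 13, and among keratin genes Krt1 had 7.

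Within the silent range, genes with a higher Prdm9 KO value had a peak more often. A peak was present in 23 of 1591 silent genes listed at 0 in both Prdm9 KO libraries (1.45%), in 10.2% of 2257 genes above 0 and under 0.05, and in 19.2% of 1387 genes from 0.05 to under 0.18. The share went on rising above the threshold, from 28.6% at 0.18 to under 1 to 72.2% of 6343 genes at 20 or more. The silent genes with a peak had a median of 0.0531. Just under the threshold lay Duox1 (0.1797), Ndst4 (0.1782) and Col25a1 (0.1798), and just above it Cdh9 (0.1802), Brinp2 (0.1805) and Moxd1 (0.1809), so no gap in level separates the 2 sides. Leaving out genes with an active end within 1000 bp, 3′ ends had a peak in 0.812% of genes at 0 and 6.09% at 0.05 to under 0.18, and starts in 0.665% and 15.2%.

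**Figure D3:**
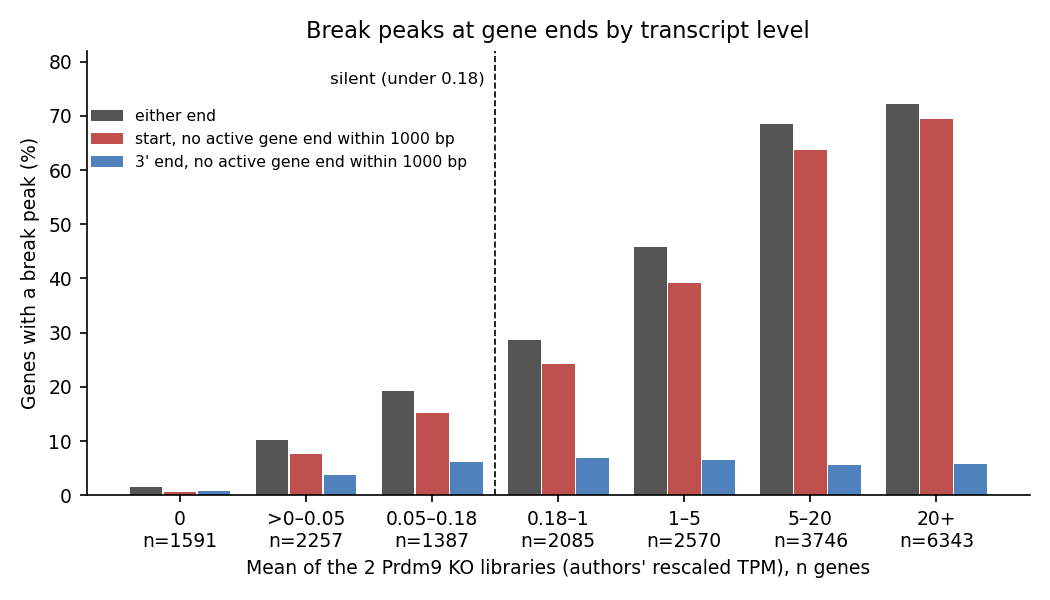
Percent of protein-coding autosomal genes with a break peak (y axis) by mean level in the 2 Prdm9 KO libraries (x axis, authors' rescaled TPM, with the number of genes), at either end (grey), at starts (red) and at 3′ ends (blue) without an active gene end within 1000 bp. Grey bars rise from 1.45% at 0 to 72.2% at 20 or more, whereas blue bars stay under 7%.

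Peaks were more frequent at starts than at 3′ ends. A strand was known for 392 of the 519 genes: 239 had the peak at the start only, 68 at the 3′ end only and 85 at both. Among the 4231 silent genes with a known strand, 324 starts (7.66%) and 153 3′ ends (3.62%) had a peak. Both counts include the 85 genes with a peak at both ends. In a short gene, such as Sox2, 1 peak can reach both. For scale, 2.75% of autosomal bases lay within 1000 bp of a peak. Active genes had a peak at 64.2% of starts and 7.998% of 3′ ends.

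Base composition separated silent starts further. A promoter window of 300 bases is called CpG-rich here when the ratio of observed to expected CG is at least 0.6 and its GC content at least 50%. With no active gene end within 1000 bp, 61 of 169 CpG-rich silent starts (36.1%) had a peak, against 135 of 3304 CpG-poor ones (4.09%). The medians of the Prdm9 KO mean differed too, at 0.0563 and 0.00599, so level and composition moved together. Within 0.05 to under 0.18 the shares were 39.4% of 94 and 9.52% of 641, and above 0 to under 0.05 they were 34.3% of 70 and 4.75% of 1389. Among starts listed at 0 a peak was present at 0 of 5 CpG-rich ones and at 8 of 1274 CpG-poor ones (0.628%). The difference was thus present in both bins above 0, and the bin at 0 holds too few CpG-rich starts to compare. CpG-rich starts of developmental genes had a peak in 18 of 38 (47.4%), and those of other genes in 43 of 131 (32.8%). CpG-poor starts of developmental genes had one in 8 of 30 (26.7%), against 127 of 3274 (3.88%) for other genes. The CpG-poor starts of other genes include those of olfactory and vomeronasal genes, whose 1158 promoter windows were 0.0864% CpG-rich. That family had a peak at 0.663% of 1207 starts with a known strand. Shares of CpG-poor starts without the family were not computed. Active CpG-rich starts had a peak in 76.3% of 3580.

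Promoter entries of RefSeq matched 208 of the silent genes with a peak at the start. Their median ratio of observed to expected CG was 0.491, with 30.8% CpG-rich, so most did not meet the definition. The medians were 0.143 in 3259 silent genes without a peak and 0.812 in 4645 active genes with a peak at the start. The GC box, GGGCGG on either strand, was in 43.75% of the 208 windows, in 8.25% of windows of silent genes without a peak and in 45.5% of all 11459 windows. TATAAA on either strand was in 16.8% of the 208, 31.9% of those without a peak and 15.4% of all. CCAAT on either strand was in 38.9%, 41.4% and 40.5%. CACGTG, which reads the same on both strands, was in 6.25%, 2.82% and 8.05%, and TGACGTCA, likewise, in 1.92%, 0.798% and 2.58%. None of these words contains another, and a match is a string of letters, not a shown binding site.

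Peaks lay close to silent starts. At CpG-rich silent starts without an active neighbour, 30.8% of starts themselves lay in a peak, the share was highest 250 bp downstream (33.1%), and 10000 bp away it was 1.78% upstream and 2.37% downstream. At CpG-poor silent starts it was 3.36% at the start and 0.696% and 0.726% at those distances. At silent 3′ ends the share was highest 1000 bp upstream, toward the gene's start, at 2.496%, against 1.45% at the end itself. In a short gene such as Ifna13 (chr4:88643641-88644459) that position lies beyond the start. Gene length was not taken into account.

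**Figure D4:**
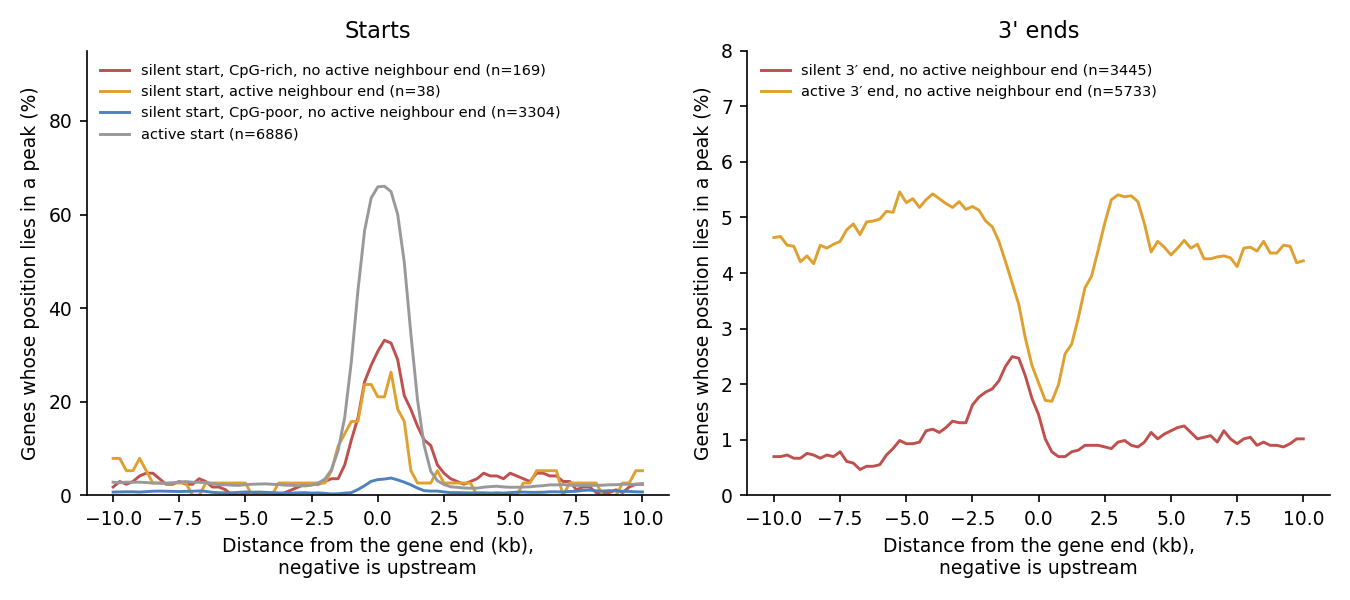
Percent of genes with a break peak at each distance from the start (left) or 3′ end (right), in steps of 250 bp up to 10000 bp, with negative distances upstream. The CpG-rich silent starts peak at 33.1% and the active starts at 66.0%, while CpG-poor silent starts stay under 4%. Both 3′ curves leave out genes with an active end within 1000 bp of the 3′ end. With such genes 7.998% of active 3′ ends had a peak within 1000 bp, and without them 5.90%. The effect of this choice on the active curve around 0 was not tested.

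Silent starts without a called peak were also examined. The 108 CpG-rich silent starts without a peak or active neighbour held 4.30 distinct fragments within 1000 bp, 1.99 times the density of their flanks, and 65.5% were in the strand pattern around the start. The 3169 CpG-poor ones held 1.76, or 1.12 times their flanks, with 56.2% in the pattern. For olfactory and vomeronasal starts without a peak the values were 1.58, 1.25 times and 56.7%. Whether a peak was called therefore does not divide starts into those with and without fragments. A count near 4 per start cannot show which single starts differ from their flanks.

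An active neighbour shared the peak in 51 of the 519 genes (9.83%). In each case the most active neighbour was a protein-coding gene with a Prdm9 KO mean of at least 1. In 46 of the 48 pairs with a known strand of the neighbour, its start had a peak within 1000 bp. Whether that was the shared peak was not checked. The 2 gene bodies overlapped in 15 of 51. For the other 468 genes no active gene end was at the peak. Of these, 7 had the peak inside the body of an active gene, and 461 had neither. Of the 461, 30 had another measured gene end at the peak with a mean under 1, and 431 had none. The table measures few noncoding genes, with a value for 225 of 12727 RefSeq lncRNAs (1.77%). At 68 of the 461 peaks there was an end of a RefSeq gene without a value, so its activity is not known here. Counted by distance, the end of a gene without a value lay within 1000 bp of an end of 76 of the 519 genes (14.6%). Among the 4716 silent genes without a peak it was 284 (6.02%). At 365 of the 461 (79.2%) there was no other RefSeq gene end of any kind.

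Neighbours were more frequent at silent genes with a peak than at those without. An active gene end lay within 1000 bp of an end in 50 of 519 (9.63%) against 142 of 4716 (3.01%). Read the other way, 50 of 192 silent genes with an active end that near (26.04%) had a peak, as did 469 of 5043 without one (9.30%). By end, 21 of 63 silent starts beside an active end had a peak (33.3%) and 303 of 4168 without one (7.27%), and for 3′ ends it was 14 of 99 (14.1%) and 139 of 4132 (3.36%). All these shares include the 1395 silent olfactory and vomeronasal genes, of which 12 had a peak. Neighbour shares without that family were not computed. Among active starts with a peak, another active end lay within 1000 bp in 1529 of 6537 (23.4%). Peaks shared with an active end held a median of 25 fragments with a median 83.3% in the strand pattern, and those with neither active end nor body 18 and 78.8%. By list, active ends were at the peak of 42 of the 365 genes in no list, 4 ion channels, 2 developmental transcription factors and 1 each of the sperm, zinc finger and solute carrier genes.

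The most active neighbour was Rps2, a ribosomal protein gene, beside Rnf151, a RING finger gene of spermatids. Their shared peak (chr17:24719008-24721008) held 40 fragments, 90.0% of nearby ones in the pattern. It lay 951 bp from Rnf151 and inside Rps2 (chr17:24718121-24721927). Rnf151 was 0.118 and 0.221 in the Prdm9 KO libraries, 0.0553 and 0.534 in the Hop2 KO libraries and 1169.9 in wild type. Rps2 was 803 and 807 without Prdm9, 1333 and 1124 without Hop2 and 513 in wild type. Rnf151 was thus far below its neighbour in every knockout library and above it in wild type. The choice of genes fixed the order of the Prdm9 KO means.

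Unc80 was 0.0732 and 0.0259 in the Prdm9 KO libraries, 0.0372 and 0.0276 in the Hop2 KO libraries and 8.90 in wild type. Its strongest peak lay within 1000 bp of its 3′ end (chr1:66699150) but did not cover it. The peak covered an end of Rpe (chr1:66700797), a sugar phosphate epimerase gene. Rpe was 21.8 and 23.1 without Prdm9, 22.3 and 19.9 without Hop2 and 16.5 in wild type. Asb15 was 0.00227 and 0 in the Prdm9 KO libraries, 0.00501 and 0.00945 in the Hop2 KO libraries and 38.3 in wild type, and Ndufa5, a respiratory complex I subunit gene at its peak, was 74.8 and 101 without Prdm9, 95.03 and 145 without Hop2 and 199 in wild type. Rsph6a was 0.0996 and 0.129 in the Prdm9 KO libraries, 0.0927 and 0.204 in the Hop2 KO libraries and 394 in wild type, and Sympk, an mRNA 3′ end processing gene whose end shares the peak, was 104.01 and 109 without Prdm9, 91.3 and 114 without Hop2 and 526 in wild type. In all 3 pairs the neighbour exceeded the silent gene in each library, an order that the choice of genes fixed for the Prdm9 KO means.

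Other pairs by the neighbour's level were Cldnd2 with Etfb, Fam71e2 with Cox6b2, Smco3 with Wbp11, Slc23a3 with Nhej1, Ache with Srrt, and Smtnl1 with Timm10. Neighbour values in the Prdm9 KO libraries were 189.7 and 181 for Etfb and 102 and 96.5 for Wbp11. Ache, which encodes acetylcholinesterase, was 0.132 and 0.220 in the Prdm9 KO libraries, 0.213 and 0.262 in the Hop2 KO libraries and 0.359 in wild type, so wild type was its highest value. Smco3 shares its peak of 96 fragments with both Wbp11 and BC049715. The peak lay 943 bp from Smco3 and covered an end of Wbp11.

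Exosc6, a subunit gene of the RNA exosome, was listed at 0 in all 5 mRNA libraries and shared its peak (chr8:111055490-111057409, 26 fragments) with the tRNA synthetase gene Aars. Aars was 80.7 and 66.1 without Prdm9, 76.7 and 77.4 without Hop2 and 119 in wild type. Exosome subunits are needed in every cell, so a listed 0 is not read as absence of the transcript. Krtap11-1, Taar2, Trpc2 and Vmn1r184 were the other genes with a peak that were listed at 0 in all 5, and of these Taar2 and Trpc2 are named after their values were seen.

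**Figure D5:**
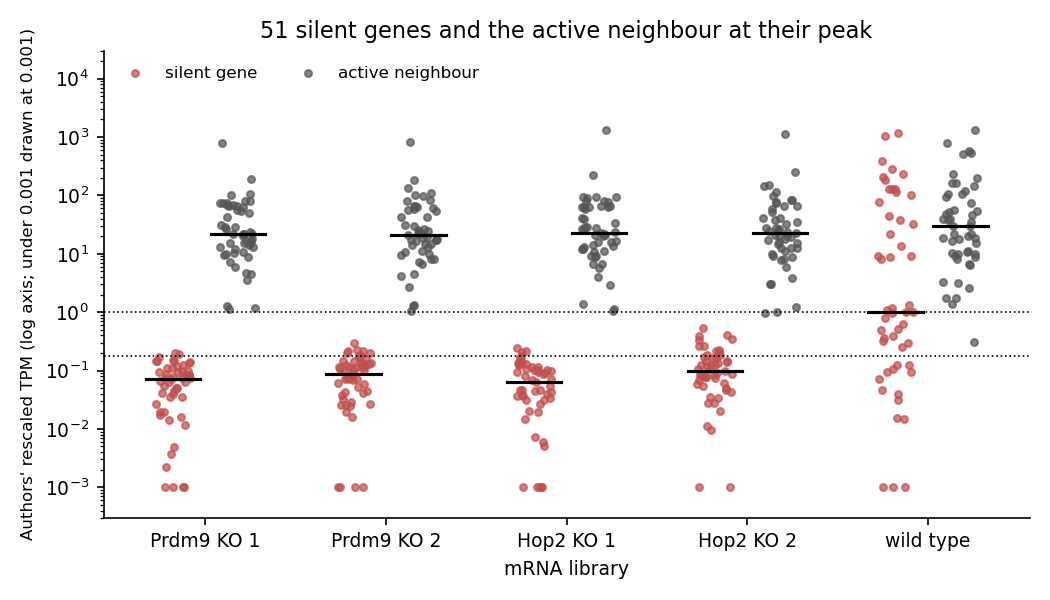
Values in each of the 5 mRNA libraries (x axis) of the 51 silent genes (red) and of their most active neighbour at the same peak (grey), in the authors' rescaled TPM on a log axis, with values under 0.001 drawn at 0.001. Bars are medians and dotted lines mark 0.18 and 1. The groups are far apart in the 4 knockout libraries and overlap in wild type, where 26 of the 51 silent genes reached 1. The separation of the Prdm9 KO means is by construction, since red genes were chosen under 0.18 and grey genes at 1 or more.

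Peaks at which 2 silent genes met numbered 9 and held 4 to 44 fragments. They joined Duox2 with Duoxa2, Duoxa2 with Duoxa1 and Duoxa1 with Duox1, a run of genes for the hydrogen peroxide forming oxidases of the thyroid and their maturation factors. The others were Chat with Slc18a3, which make and package acetylcholine, Chrna3 with Chrnb4, Hoxa5 with Hoxa6, Cfap221 with Sctr, Galntl6 with BC030500, and Pcdha4 with Gm37013. These pairs are named after their values were seen. Duox1 also had a peak of 86 fragments at its other end, shared with the active gene Shf. Over all silent genes with a peak, 41 had more than 1 peak.

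Most of the genes were also low in Hop2 KO testis, which the choice did not use. Hop2 (Psmc3ip) makes a protein that assists DMC1 when broken ends pair with the homologous chromosome, and mice without it are known to arrest in meiosis, as are mice without Prdm9. The mean of the Hop2 KO libraries was under 0.18 in 493 of 519 genes (94.99%), against 97.3% of the 4716 silent genes without a peak. No gene with a peak reached 1, and the highest mean was 0.447. As a check of the labels, Psmc3ip was 3.51 and 5.06 in its own knockout and 22.8 to 197 in the other 3 libraries. Prdm9 transcript was still counted in the Prdm9 KO libraries, at 4.73 and 5.93, beside 10.7 and 15.03 without Hop2 and 6.20 in wild type.

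In wild type, 165 of the 519 genes (31.8%) reached 1, against 982 of 4716 silent genes without a peak (20.8%). At 5 the shares were 19.1% and 12.4%, and at 100 they were 7.51% and 5.30%. The median in wild type was 0.292 for genes with a peak and 0.0675 for those without. The silent genes included 1395 olfactory and vomeronasal genes, of which 12 had a peak. These wild-type shares and medians were not computed without that family. On the other side, 225 of the 519 (43.4%) were under 0.18 in both Hop2 KO and wild type. Genes that reached 1 in wild type made up 26 of the 51 with an active end at the peak (51.0%) and 138 of the 461 with neither active end nor body (29.9%).

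The 10 highest wild-type values included several genes known from spermatids. Spz1, a transcription factor gene of the testis, was 0.0479 and 0.133 in the Prdm9 KO libraries, 0.0696 and 0.555 in the Hop2 KO libraries and 1645 in wild type. Its peak, at chr13:92573854-92575543, held 12 fragments with no active gene end there. Nt5c1b, a cytosolic nucleotidase gene, was 1043 in wild type and shared its peak with Rdh14. Pabpc2, which encodes a poly(A)-binding protein, was 663, Tmco5 529, Ccin, the gene of the sperm head protein calicin, 510.5, and Fam71f1 472 in wild type. Gykl1 was 381 and Tex43 379 there. All these genes were at most 0.555 in each knockout library. Of the 11 sperm and spermatid genes with a peak, 10 reached 1 in wild type, among them Ccdc83 (84.9), Ccdc182 (69.0), Dnah6 (30.2) and Ccdc148 (8.09). The list held 91 silent genes, and how many of those without a peak reached 1 was not computed. The count of 10 is therefore not read as a trait of genes with a peak.

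Spermatids moved with the same contrast. The summed level of 6 of 6 spermatid markers (Prm1, Prm2, Tnp1, Tnp2, Acrv1 and Odf1) was 1.69 to 29.1 in the 4 knockout libraries and 111021 in wild type. Hop2 KO library 2 held the highest of these knockout sums, and 473 of the 519 genes were under 0.18 in it, against 496 in Hop2 KO library 1. The sum of 6 meiotic markers was 376 to 405 and 1536, and that of 3 epididymis markers 0.0831 to 0.233 and 9.59. Other lists were lower in wild type. Sums were 68.1 to 90.2 in the knockouts and 25.1 in wild type for 4 spermatogonia markers, and 875 to 1109 and 199.6 for 4 Sertoli cell markers. They were 24199.6 to 71418 and 5636 for 4 Leydig cell markers, 325 to 569.6 and 45.5 for 4 macrophage markers, and 14.4 to 19.6 and 6.36 for 2 endothelium markers. Their part in the wild-type values was not tested. In whole testis, fewer cells of a type and less RNA per cell cannot be told apart.

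Hop2 KO was compared with wild type over 16599 genes on log2(value + 1) with limma, the single wild-type library being assumed to vary like the knockouts. At an adjusted p under 0.05, 38.1% of genes tested were lower in Hop2 KO and 29.7% higher. Of the 519 genes, 121 passed the filter of a mean of at least 1, each through its wild-type value, and all 121 were lower. Since the filter fixed that direction, nothing is read from the count, and no p-value of a single gene is given. As a description, the log2 difference, Hop2 KO minus the 1 wild-type library, was -10.32 for Spz1, -9.85 for Rnf151 and -3.26 for Unc80. Rescaling every column to the same total moved the share of higher among all genes called from 43.8% to 61.8%, and 101 of the 519 then passed the filter and were lower.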

How the data were processed

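Levels of mRNA are a signal per gene that the authors called TPM, per the file headers, made with CASAVA, kallisto and sleuth per the submitters' processing notes. No version of these is given in the sources used here. Column sums were 825459 to 953598 in the knockouts and 1622660 in wild type, so unlike plain TPM they share no total, are called rescaled TPM here, and leave read depth unknown. A test for TPM on the log2 scale had been planned and was kept for this signal. Symbols on several lines were summed (162). Of the 34839 genes in the table, 27790 matched RefSeq by symbol and 677 by synonym.

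The deposited peaks (17731, of which 17120 autosomal) and SSDS fragments are coordinates, called with MACS2 2.1.0.20150420 on builds GRCm38 and mm10 per the submitters' processing notes. The fragments came as 9397213 lines, of which 2652951 were distinct (3.54 lines each), and 26.3% of distinct ones lay in peaks. Each was counted once. With 1 SSDS library, counts cover counting error only. A peak was assigned to a gene end when any base of it lay within 1000 bp. Flanks lay 10000 to 20000 bp outside a peak, and positions away from peaks 15000 bp beside them with none within 3000 bp. Strand came from the RefSeq promoter table, and genes without an entry have no strand here.

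Hop2 KO and wild type were compared on log2(value + 1) by limma 3.58.1 (R 4.3.3; trend on), over genes with a mean of at least 1, with Benjamini-Hochberg adjustment. This scale understates changes of low genes. Counts and shares used Python 3.11.15 and pandas 2.3.3. No column of per-sample values was unused (0).

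The genes, the 13 lists and the tests were chosen with earlier results of these data known. Named genes are the 15 with most fragments, the 15 with most fragments without an active end at the peak, the 10 with the most active neighbours, the 10 highest in wild type, up to 4 per list and 3 on each side of the threshold. Predicted genes and clones were skipped, and a few genes that the rule takes are not reported here. Alternatives covered the distance, the thresholds, peak strength, leaving out libraries, filters, pseudocounts and scaling.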

Additional observations from a re-analysis of the deposited data

Results flagged for a closer look

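The X chromosome lies outside the comparisons above and has 610 deposited peaks. Of 274 silent X-linked protein-coding genes, 12 (4.38%) had a peak within 1000 bp of an end, a signal in data that the report did not otherwise use. They included Sytl5, Sh2d1a, 5430427O19Rik, Gm14781, Nap1l2, Fgf16, Rtl3, Hdx, Pcdh19, Cldn2 and Irs4. By the same rule 519 of 5235 silent autosomal genes (9.91%) had one, so the X-linked share was the lower, with no test of the difference. No break map of control mice was used here.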

How the results depend on the processing

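The number of silent genes with a peak, 519, was 466 and 598 at distances of 500 and 2000 bp, 413 by peak midpoint and 523 with the mean of 4 knockout libraries. It moved to 253 and 819 with silent defined as under 0.05 and under 0.5, to 217 with silent required in all 5 mRNA libraries, to 199 with peaks of at least the median fragments per kb and to 56 with peaks at or above the upper quartile of fragments per kb. Leaving out a Prdm9 KO library gave 511 to 544. Of 2 alternatives chosen after seeing the data, peaks of at least the median deposited lines per kb gave 197, and peaks with over 50% of fragments in the strand pattern 493, of which 49 shared the peak with an active end.

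The 51 genes with an active end at the peak became 39 and 81 at 500 and 2000 bp, 32 by midpoint, 24 with peaks of at least the median per kb and 12 at or above the upper quartile, or 8.37%, 13.5%, 7.75%, 12.1% and 21.4% of the genes then chosen. Active thresholds of 0.5 and 5 gave 58 and 45, activity in wild type 61, and leaving out a Prdm9 KO library 46 to 58.

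Of the genes tested against wild type, 121 were lower in Hop2 KO, 298 without the filter (8 were then higher, of 512 tested), 78 with a mean of at least 5, 100 in the fit of all 5 libraries, 101 after quantile normalization and 106 to 107 without a Hop2 KO library. The last counts come from a fit over the remaining 4 mRNA libraries, in which single libraries are assumed to vary like the other groups. Fewer genes pass the stricter filter by construction. The cause of the other shifts was not tested. Without the filter, 26.9% of all genes called were higher, so most genes called were lower there too. The genes were chosen by low Prdm9 KO values, and most were also low in Hop2 KO. Nothing is therefore read from these counts of lower genes. No paired analysis was possible because the wild-type library carries no replicate number and the break map is 1 library. Read depth of the mRNA libraries is unknown, and most peaks rest on few fragments.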
